A study of Mus musculus with 6 samples.

Results

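The core cardiac transcription factors are the DNA-binding proteins that switch on the genes of the heart muscle cell. Here they were 10 genes, taken by symbol from a table of 54532 genes: Gata4 and Gata6 (GATA zinc fingers), Nkx2-5 (an NK2 homeodomain protein), Tbx5 and Tbx20 (T-box), Mef2a, Mef2c and Mef2d (MEF2, of the MADS box class), Hand2 (basic helix-loop-helix) and Srf (MADS box). Each of the 10 was found once and passed the filter for testing, which 12944 genes passed. The values came from heart tissue of 6 mice, ventricular by the study's methods, 3 controls (Ctrl) homozygous for a loxP-flanked Mrps5 allele (Mrps5 fl/fl) and 3 conditional knockouts (cKO) that had the same alleles together with MCM. MCM is the αMHC-MerCreMer transgene, a Cre recombinase that is driven by a cardiomyocyte promoter and that tamoxifen switches on. All 6 mice received tamoxifen at 45 mg/kg/day by intraperitoneal injection for 5 days from 8 weeks of age, and hearts were collected 12 weeks later. The controls lacked MCM, so an effect of Cre in itself and an effect of losing Mrps5 cannot be told apart.

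These factors bind DNA next to one another and act in combination on the promoters and enhancers of contractile, conduction and calcium-handling genes. GATA4, NKX2-5 and TBX5 bind each other and share many target genes, TBX20 acts as a repressor at many sites and as an activator at others, and SRF and the MEF2 proteins couple growth and calcium signals to muscle genes. In the adult heart GATA4, MEF2 and SRF are known for their part in the growth response to load. Several of them are also made by endothelial cells, smooth muscle cells and fibroblasts, so a value from whole tissue is a mixture.

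Libraries held 15989322 to 24875499 reads assigned to genes, and each factor rested on 500 to 4691 reads in each heart. Mrps5 itself, which encodes a protein of the small mitochondrial ribosomal subunit, measured 5.20, 6.45 and 6.33 FPKM (fragments per kilobase of gene, scaled to library size) in Ctrl against 1.12, 1.23 and 1.31 FPKM in cKO hearts, or 20.4% of the Ctrl mean. Cardiomyocyte markers summed to 22499 to 27818 FPKM in Ctrl and 12799 to 20201 FPKM in cKO hearts, with 7 of 10 lower in cKO and Actc1 the highest by the mean over all 6 hearts. Endothelial markers, led by Fabp4, summed to 337 to 353 FPKM in Ctrl against 196 to 215 FPKM in cKO hearts, with 5 of 8 lower. The smooth muscle and pericyte sum ran from 148 to 167 FPKM in Ctrl and from 98.3 to 126 FPKM in cKO hearts, and most of it was Rgs5 (lower, 123 and 58.3 FPKM on average), while Acta2 and Cspg4 were higher. Fibroblast sums overlapped between the groups, with the leading gene Dcn lower and Col3a1, Col1a1 and Postn higher. Macrophage sums (led by C1qa, with Csf1r lower and Cx3cr1 and Fcgr1 higher) and epicardial sums (led by Upk3b) overlapped too. These called markers besides the leading genes were named after their values were seen. Fewer cells of a type and less RNA per cell cannot be told apart in such tissue. Atrial markers, led by Myl7, summed to 56.7 to 1091 FPKM in Ctrl against 147 to 814 FPKM in cKO hearts, with Ctrl replicate 1 and cKO replicate 3 far above the rest. Y-linked genes were at 0 FPKM in cKO replicate 2 and averaged 7.61 to 8.79 FPKM in the other hearts. The study reports the use of male mice only.

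Of the 10 factors, Gata4 and Tbx20 were higher in cKO hearts and Tbx5 was lower, and the other 7 did not pass the test (limma on log2(FPKM + 1), Benjamini-Hochberg adjusted over all 12944 genes, threshold 0.05). The background was wide: 33.3% of all genes tested were called, 16.3% higher and 17.0% lower. Among 766 tested genes annotated in the table as transcription factors 23.8% were called, 7.05% higher and 16.7% lower. The 3 calls among 10 factors were close to the background share. The median log2 fold change was -0.12 over the 10 factors, -0.08 over the annotated transcription factors and -0.02 over all genes. Groups did not overlap for 6 of the 10 factors and for 51.2% of all genes. Without the 2 hearts richest in atrial marker RNA, Tbx5 was still called (log2 fold change -0.76, limma adjusted p = 0.038), while Gata4 (0.70, adjusted p = 0.0522) and Tbx20 (0.46, adjusted p = 0.101) were not. Calls among all genes fell too in that setting, to 2018 from 4315 with all hearts. Leaving out any single heart gave 2850 to 3999 calls among all genes.

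**Figure D1:**
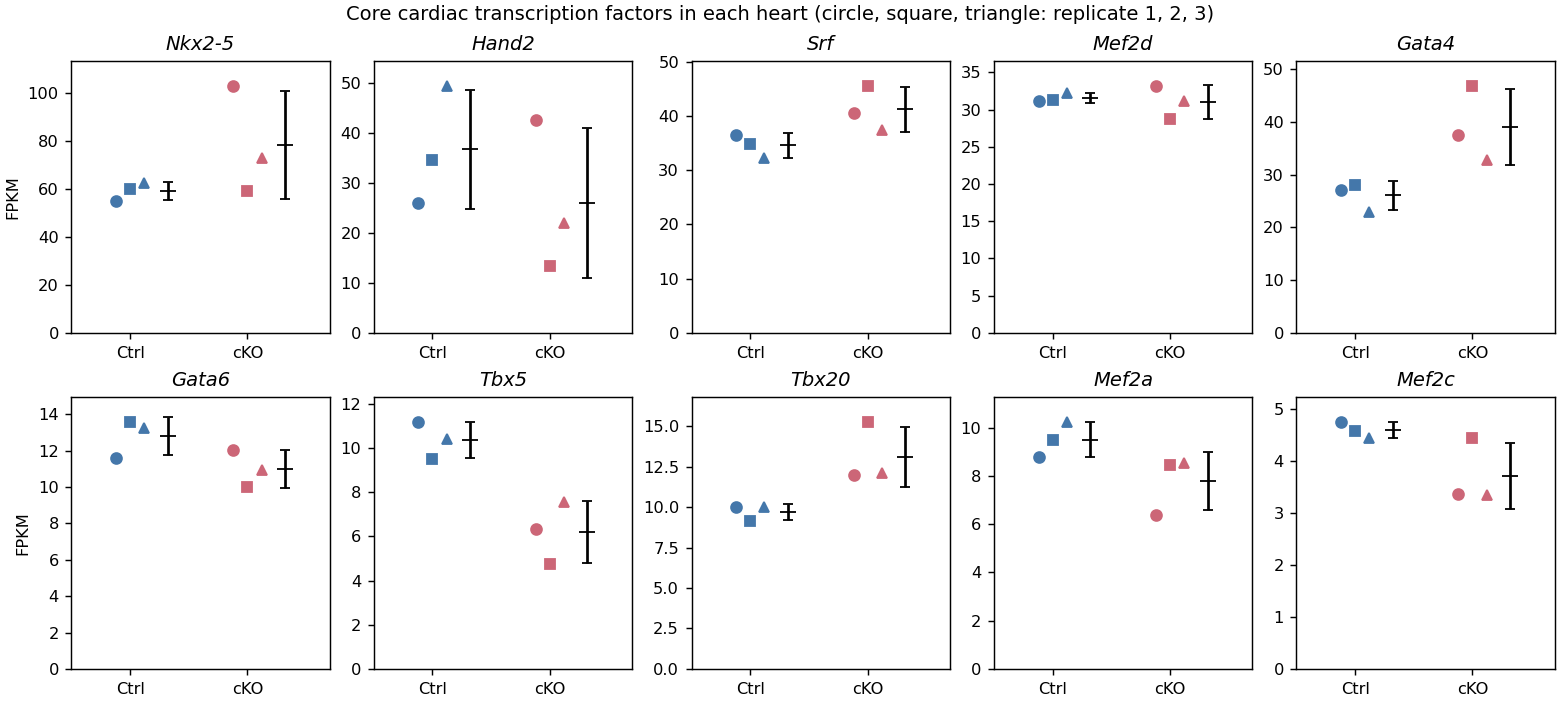
FPKM of each of the 10 factors in the 3 Ctrl and 3 cKO hearts, a panel per gene with its own linear axis from 0. Each symbol is a heart (circle, square and triangle for replicates 1, 2 and 3), and the bar beside them is the group mean ± SD. The groups separate for Gata4, Tbx20 and Srf (higher in every cKO heart) and for Tbx5, Mef2a and Mef2c (lower in every cKO heart), whereas Hand2 spreads over both groups.

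GATA4 and GATA6 bind the same DNA motif and can stand in for each other in part. Gata4 (chr14:63198922-63271692, minus strand, GRCm38) was at 27.1, 28.1 and 23.0 FPKM in Ctrl against 37.5, 46.8 and 32.8 FPKM in cKO hearts. Every cKO heart was above every Ctrl heart. The means were 26.0 ± 2.71 and 39.0 ± 7.14 FPKM (SD, n = 3 each), a log2 fold change of 0.56 (SE 0.14, limma adjusted p = 0.0244). The call was lost without Ctrl replicate 1 (log2 fold change 0.59, limma adjusted p = 0.0562), Ctrl replicate 3 (0.47, adjusted p = 0.0793) or cKO replicate 1 (0.58, adjusted p = 0.0548).

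Gata6 (chromosome 18, plus strand) was at 11.6, 13.6 and 13.3 FPKM in Ctrl against 12.1, 9.98 and 11.0 FPKM in cKO hearts. The groups overlapped at Ctrl replicate 1 and cKO replicate 1. The log2 fold change of -0.20 (SE 0.096, 95% interval -0.43 to 0.02, limma adjusted p = 0.146) did not pass the test. The gene overlaps 1010001N08Rik on the opposite strand by 60 bases, a neighbour at 4.47 FPKM in Ctrl against 2.89 FPKM in cKO hearts on average.

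Within a heart the ratio of the 2 GATA genes does not depend on how libraries are scaled. Gata4 was at 2.34, 2.07 and 1.73 times the level of Gata6 (FPKM, per length of gene) in Ctrl hearts and at 3.10, 4.69 and 2.99 times in cKO hearts. The ratio was thus higher in all 3 cKO hearts than in any Ctrl heart. As a share of both genes together, Gata4 took 66.9% ± 3.33 in Ctrl and 77.7% ± 4.13 in cKO hearts (SD, n = 3 each, exact permutation p = 0.1, the smallest that 3 against 3 hearts allow, 0.25 adjusted over 5 family shares).

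TBX5 and TBX20 are T-box factors with partly opposite actions on shared sites, TBX5 being a strong activator of conduction and calcium-handling genes. Tbx5 (chr5:119832668-119885219, plus strand) was at 11.2, 9.52 and 10.4 FPKM in Ctrl against 6.32, 4.75 and 7.54 FPKM in cKO hearts. All cKO hearts lay below the lowest Ctrl heart. The means were 10.4 ± 0.831 and 6.20 ± 1.40 FPKM, which left 59.8% of the Ctrl level, with a log2 fold change of -0.67 (SE 0.148, limma adjusted p = 0.0143). Tbx5 was called in all 17 alternative settings, with log2 fold changes from -0.81 to -0.52 and adjusted p from 0.0102 to 0.0499. In each group the heart with the most atrial marker RNA had the highest Tbx5, and with Myl7 as a covariate the log2 fold change was -0.70 (limma adjusted p = 0.0226).

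Tbx20 (chr9:24718138-24774303, minus strand) was at 9.99, 9.13 and 10.02 FPKM in Ctrl against 12.0, 15.3 and 12.1 FPKM in cKO hearts. The Ctrl hearts were tightly grouped and all cKO hearts were above them. The means were 9.71 ± 0.509 and 13.1 ± 1.87 FPKM, a log2 fold change of 0.39 (SE 0.106, limma adjusted p = 0.0297). Without Ctrl replicate 1, 2 or 3 the log2 fold change was 0.41, 0.35 and 0.41 (limma adjusted p = 0.068, 0.0966 and 0.0691), and with Myl7 as a covariate it was 0.39 (adjusted p = 0.0562). The 250 bases before the RefSeq start site of Tbx20 (chr9:24774304-24774553, minus strand, GRCm38.p6) are shown because this is the called factor with a promoter in the table used here. They were searched on both strands for a GATA motif (AGATAA), an NK2 motif (AAGTGG), a T-box motif (AGGTGTG), the HAND E-box (CATCTG), the MEF2 motif and the CArG box, the last being the element that SRF binds. None of these letters occurred in the 300-base window around its start, so all bases are in lower case.
Tbx20: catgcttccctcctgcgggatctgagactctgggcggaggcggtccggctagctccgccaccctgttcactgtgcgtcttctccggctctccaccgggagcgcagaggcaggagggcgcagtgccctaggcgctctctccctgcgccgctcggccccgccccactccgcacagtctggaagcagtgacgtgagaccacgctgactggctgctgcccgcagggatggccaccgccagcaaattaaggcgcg

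Per length of gene, the 2 T-box genes stood in another order in the 2 groups. Tbx20 was at 0.894, 0.958 and 0.964 times the level of Tbx5 (FPKM) in Ctrl hearts and at 1.89, 3.22 and 1.60 times in cKO hearts. On this scale Tbx5 was slightly above Tbx20 within each Ctrl heart, though their ranges over the Ctrl hearts overlapped, and Tbx20 was above Tbx5 within each cKO heart. Tbx5 held 51.6% ± 1.06 of the pair in Ctrl and 32.2% ± 7.63 in cKO hearts (SD, n = 3 each, exact permutation p = 0.1, 0.25 adjusted over 5 shares). Counted in reads, not divided by gene length, Tbx20 led in every heart of both groups, and the share of Tbx5 was 29.4% ± 0.883 in Ctrl and 15.8% ± 4.51 in cKO hearts.

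**Figure D2:**
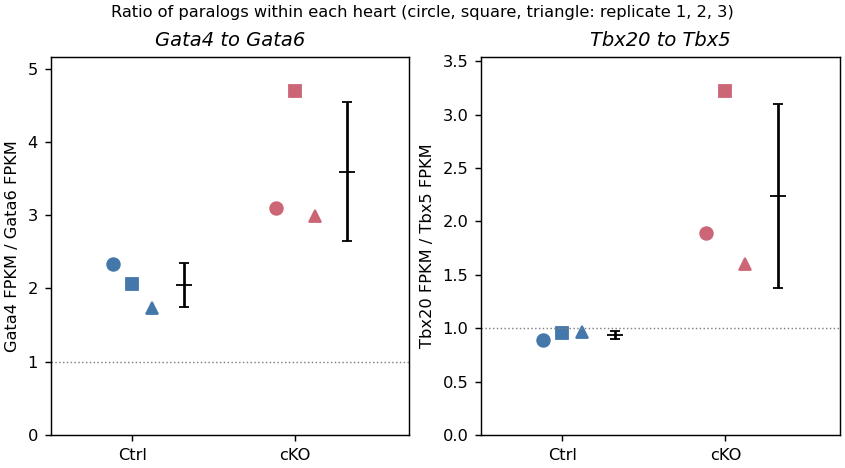
Ratio of Gata4 to Gata6 and of Tbx20 to Tbx5 FPKM within each heart on linear axes from 0, 1 symbol per heart with the group mean ± SD beside it and a dotted line at equal levels. Both ratios are higher in every cKO heart than in every Ctrl heart, and Tbx20 to Tbx5 passes from below 1 in Ctrl to 1.60 or more in cKO on this scale, which is per length of gene.

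NKX2-5 is the homeodomain factor that marks cardiac lineage cells from the early embryo on. Nkx2-5 (chr17:26838664-26841565, minus strand) was the most abundant of the 10 in either group, at 54.9, 59.9 and 62.5 FPKM in Ctrl against 103, 59.2 and 72.8 FPKM in cKO hearts. One cKO heart, replicate 2, lay inside the Ctrl range while replicate 1 was far above it. The log2 fold change of 0.36 (SE 0.19, 95% interval -0.09 to 0.81, limma adjusted p = 0.181) did not pass the test. Without cKO replicate 2 it was 0.55 (limma adjusted p = 0.0422).

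MEF2 proteins are held back by class IIa histone deacetylases and released by calcium signals. Mef2a (chr7:67231163-67372858, minus strand) was at 8.80, 9.47 and 10.2 FPKM in Ctrl against 6.38, 8.46 and 8.52 FPKM in cKO hearts. Mef2c (chr13:83504034-83667080, plus strand) was at 4.75, 4.58 and 4.45 FPKM in Ctrl against 3.36, 4.45 and 3.34 FPKM in cKO hearts. In both genes all cKO hearts were below all Ctrl hearts, though for Mef2c the values of Ctrl replicate 3 and cKO replicate 2 were equal to 3 digits. The log2 fold changes were -0.26 (SE 0.119, limma adjusted p = 0.129) for Mef2a and -0.25 (SE 0.104, limma adjusted p = 0.103) for Mef2c, and neither passed the test. Without cKO replicate 2, Mef2c was at -0.36 (limma adjusted p = 0.0153). Mef2a overlaps Lysmd4 on the opposite strand over 76168 bases, and Lysmd4 was lower in cKO hearts, with a log2 fold change of -0.28 (limma adjusted p = 0.0265).

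Mef2d (chr3:88142372-88172086, plus strand) was the major MEF2 gene per length of gene, at 31.1, 31.3 and 32.3 FPKM in Ctrl against 33.2, 28.7 and 31.2 FPKM in cKO hearts. The cKO values enclosed the Ctrl values. Its log2 fold change was -0.03, with a 95% interval from -0.21 to 0.15 (limma adjusted p = 0.81), the narrowest interval of the 10. Mef2d made up 69.1% ± 0.488 of MEF2 FPKM in Ctrl against 72.9% ± 4.20 in cKO hearts (SD, n = 3 each, exact permutation p = 0.3). Counted in reads, not divided by gene length, its share was 47.2% ± 0.532 in Ctrl and 51.9% ± 5.35 in cKO hearts. The 3 genes together stood at 45.7 ± 1.18 and 42.5 ± 0.803 FPKM. A MEF2 motif crossed the RefSeq start site of Mef2a (3.19% of 32851 promoter windows hold one), and 1 of 3 Mef2c starts had a T-box motif (5.84% of windows) and another an E-box (17.2%).

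HAND2 works in the right ventricle and outflow tract of the embryo and stays on in adult heart tissue. Hand2 (chr8:57320983-57324633, plus strand) was at 26.0, 34.6 and 49.4 FPKM in Ctrl against 42.7, 13.3 and 22.0 FPKM in cKO hearts. It was the most variable factor, with a coefficient of variation of 32.3% in Ctrl and 58.0% in cKO hearts. The log2 fold change was -0.59 (SE 0.41, 95% interval -1.56 to 0.39, limma adjusted p = 0.309) and ran from -1.01 without cKO replicate 1 to -0.20 without cKO replicate 2. AV026068, the long noncoding RNA gene Hand2os1 by its identifier, overlaps Hand2 by 3251 bases on the opposite strand. It was at 6.15, 7.49 and 9.84 FPKM in Ctrl against 4.19, 3.87 and 4.34 FPKM in cKO hearts. All its cKO values were below all Ctrl values, with a log2 fold change of -0.76 (SE 0.149, limma adjusted p = 0.00958). Whether the counting used strand was not given in the sources used here, so reads in the shared stretch cannot be given to either gene with certainty. The Hand2 promoter (chr8:57320733-57320982, plus strand, GRCm38.p6) is shown because it holds motifs of 2 of the factor families, in capitals an E-box that begins 246 bases before the start and a GATA motif on the reverse strand that begins 172 bases before it. A GATA motif occurs in 11.2% of all windows.
Hand2: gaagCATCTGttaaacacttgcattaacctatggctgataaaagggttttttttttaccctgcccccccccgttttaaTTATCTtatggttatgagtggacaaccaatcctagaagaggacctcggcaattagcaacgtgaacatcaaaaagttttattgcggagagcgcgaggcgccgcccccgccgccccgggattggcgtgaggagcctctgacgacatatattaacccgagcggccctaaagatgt

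SRF binds CArG boxes and drives actin and early growth genes. Srf (chr17:46548329-46556175, minus strand) was at 36.6, 34.9 and 32.2 FPKM in Ctrl against 40.6, 45.6 and 37.5 FPKM in cKO hearts. All cKO hearts were above all Ctrl hearts. The means were 34.6 ± 2.22 and 41.2 ± 4.09 FPKM, and the log2 fold change of 0.24 (SE 0.095, 95% interval 0.02 to 0.47) did not pass after adjustment (limma adjusted p = 0.0887). It passed when libraries were scaled without genes encoded by mitochondrial DNA (0.33, adjusted p = 0.0346) or to total reads (0.39, adjusted p = 0.0198). Gm26904 overlaps Srf on the opposite strand over 7847 bases, at 0.0246 FPKM in cKO replicate 2 and 0 FPKM in the other hearts. Mir6976 overlaps Srf by 63 bases on the same strand and was not called. The Srf promoter (chr17:46556163-46556412, minus strand, GRCm38.p6) is shown for its 2 CArG boxes, in capitals, which begin 82 and 62 bases before the start. They read CCATATAAGG and CCATAAAAGG, and 1.63% of all windows hold such a box. The match is to letters only and does not show binding.
Srf: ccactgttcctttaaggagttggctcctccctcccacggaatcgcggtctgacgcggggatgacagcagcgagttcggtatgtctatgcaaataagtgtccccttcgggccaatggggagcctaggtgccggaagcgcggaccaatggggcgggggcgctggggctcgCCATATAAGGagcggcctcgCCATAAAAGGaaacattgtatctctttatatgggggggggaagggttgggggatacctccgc

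**Figure D3:**
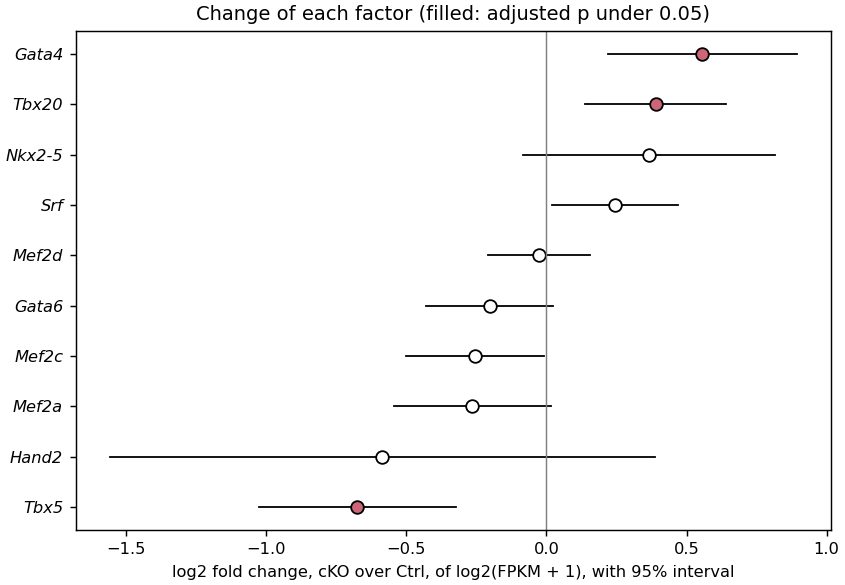
Log2 fold change (cKO against Ctrl, on log2(FPKM + 1)) of the 10 factors with 95% intervals from limma, not adjusted for multiple genes, and filled symbols for those past the adjusted threshold. Only Gata4, Tbx20 and Tbx5 are filled, and the intervals of Srf and Mef2c also leave out 0 before adjustment.

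Per length of gene, the order in Ctrl hearts was Nkx2-5, then Hand2, Srf and Mef2d with overlapping ranges, then Gata4, Gata6, the overlapping trio of Tbx5, Tbx20 and Mef2a, and last Mef2c. The wide range of Hand2 (26.0 to 49.4 FPKM) also overlapped that of Gata4 (23.0 to 28.1 FPKM). In cKO hearts Nkx2-5 stayed at the top and Mef2c at the bottom. Between them Srf, Gata4, Mef2d, Hand2, Tbx20 and Gata6 each overlapped the next in range, followed by Mef2a and Tbx5, which overlapped as well. Among 1451 annotated transcription factor genes, Gata4 ranked 26 by mean FPKM in Ctrl against 12 in cKO hearts, Tbx20 ranked 109 and 71, and Tbx5 ranked 104 and 172. Nkx2-5 ranked 6 and 7. Of the cKO hearts, replicate 2 was farthest from the Ctrl mean for 7 of the 10 factors, replicate 1 for 2 and replicate 3 for 1. The same count was not made over all genes, so it cannot be read as particular to these factors. Replicate 2 was also the heart with Y-linked genes at 0 FPKM, and a part of sex in its distance from the Ctrl mean was not tested. Without cKO replicate 2 the calls were Gata4, Tbx20, Nkx2-5, Tbx5 and Mef2c.

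**Figure D4:**
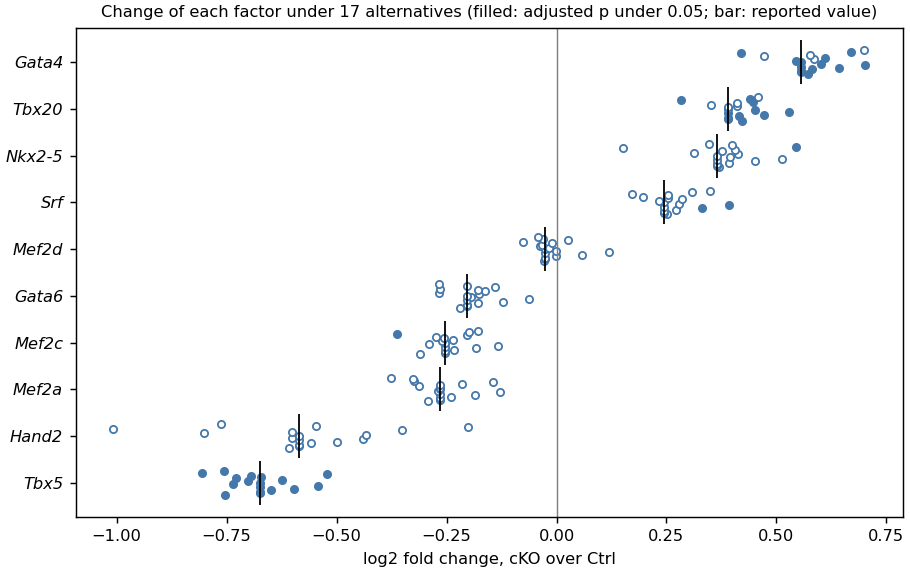
Log2 fold change of each factor under the reported setting and 17 alternatives, 1 point per setting, filled where the adjusted p was under 0.05, and a bar at the reported value. Tbx5 is filled throughout, Gata4 in 12 and Tbx20 in 10 of the alternatives, and the points of Mef2d fall on both sides of 0.

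For the 3 called factors, the genes with the nearest profiles over the 6 hearts were sought among 5512 protein-coding genes averaging 5 FPKM or more, by root mean square distance of centred log2(FPKM + 1). Nearest to Tbx5 were Dsg2 (distance 0.0588), which encodes the desmosomal cadherin desmoglein 2, and Suox (0.0645), which encodes sulfite oxidase. Nearest to Gata4 were Kremen1 (0.0416) and Ehd4 (0.0581), and nearest to Tbx20 were E2f4 (0.0371) and Mrm1 (0.0376). The distances say only that the centred values lay close together over the hearts. The order of hearts within a group could differ: Suox was highest in Ctrl replicate 3 and Tbx5 in Ctrl replicate 1 among the Ctrl hearts.

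Relatives of the same families were mostly too low to test. Of 24 GATA, NK2, T-box, MEF2 and HAND relatives 7 passed the filter. Of these 1 was higher and 2 lower, with a median log2 fold change of -0.08, while 33.3% of all genes tested were called. Gata2, a factor of blood and endothelial cells, was at 4.22, 3.79 and 4.20 FPKM in Ctrl against 1.92, 1.67 and 2.31 FPKM in cKO hearts. It was lower in all cKO hearts, with a log2 fold change of -0.78 (SE 0.098, limma adjusted p = 0.00245), beside the lower endothelial markers, whose part in this was not tested. Tbx3, a repressor of working-muscle genes in the conduction system, was lower (-0.40, adjusted p = 0.0324), and Tbx15 was higher from a low level (0.38, adjusted p = 0.0252). Mef2b did not reach the filter, at 0.088 to 0.205 FPKM in Ctrl against 0.427 to 0.673 FPKM in cKO hearts.

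Other transcription factors of heart development or chamber identity gave 2 higher and 5 lower of 20 tested, with a median log2 fold change of -0.06. These calls together were close to the 33.3% called among all genes tested. Hopx, an atypical homeodomain protein that lacks DNA binding and modulates SRF, was at 90.9, 106 and 83.8 FPKM in Ctrl against 33.3, 54.2 and 48.9 FPKM in cKO hearts. This was a log2 fold change of -1.05 (limma adjusted p = 0.00687). The Notch effector Hey1 (-0.65) and the estrogen-related receptor gene Esrrg (-0.63), a regulator of mitochondrial genes, were also lower, while the hypoxia factor gene Hif1a (0.58) and Meis2 (0.29) were higher. Prox1, Tead1 and Irx4 did not pass the test, at log2 fold changes from -0.05 to -0.01. Tbx2, Tbx3, Tbx18 and Hand1 were on this list and on that of the relatives, so the lower Tbx3 is in both counts.

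Proteins that switch these factors on or off gave 4 higher and 7 lower of 32 tested, with a median of -0.12. Their calls together were close to the 33.3% called among all genes tested. With libraries scaled to total reads the balance turned, to 6 higher and 2 lower. Rcan1, a calcineurin inhibitor and itself a readout of calcineurin signalling, was at 33.6, 29.6 and 25.9 FPKM in Ctrl against 85.5, 104 and 103 FPKM in cKO hearts, a log2 fold change of 1.68 (limma adjusted p = 0.000515). The chromatin remodelling genes Smarcd3 (0.51), which encodes a heart-enriched subunit, and Smarca4 (0.44) were higher, as was Camk2d (0.38), the calcium/calmodulin kinase of cardiomyocytes. Hdac4, which encodes a MEF2 repressor, was lower at 2.07, 2.47 and 2.63 FPKM in Ctrl against 1.14, 0.864 and 1.19 FPKM in cKO hearts (-0.72, adjusted p = 0.00337). Of the 4 class IIa deacetylases it was the 1 called. Mapk14, the p38 kinase (-0.52), and Ppp3r1, the calcineurin regulatory subunit (-0.34), were lower too. The coactivators of SRF, Myocd, Mkl1 and Mkl2, did not pass the test, at log2 fold changes of 0.16, 0.10 and -0.08. Of the GATA cofactors Zfpm2 was lower (-0.28, adjusted p = 0.0492).

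Textbook target genes were assigned to factors from general knowledge and not from binding in these hearts. They gave 13 higher and 15 lower of 53 tested, beside 16.3% higher and 17.0% lower of all genes tested. Their median log2 fold change was -0.05. Of the 9 genes listed under TBX5 and TBX20, none was higher by limma (0 also at an unadjusted p under 0.05 and 0 with voom) and 5 were lower, with a list median of -0.78. These were Pln, Atp2a2, Cacna1c, Kcnj2 and Ryr2, named after their values were seen, all of calcium handling or ion conduction. Pln, the phospholamban gene, was at 467, 494 and 433 FPKM in Ctrl against 139, 172 and 209 FPKM in cKO hearts (-1.43, adjusted p = 0.00148). Atp2a2, the calcium pump gene that phospholamban restrains, was at 2552, 2657 and 2788 FPKM in Ctrl against 1174, 1193 and 1488 FPKM in cKO hearts (-1.06, adjusted p = 0.00164). Pln and Ryr2 are also on the cardiomyocyte marker list, whose sum was lower in cKO hearts, and the part of that in the result was not tested. Gja5, Kcne1 and Nppa on the same list did not pass the test.

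Genes listed under SRF gave 6 higher and 1 lower of 13 tested, with a list median of 0.24. Among all genes tested 16.3% were higher and 17.0% lower. Fhl1, a LIM protein of the sarcomere, was at 50.7, 37.3 and 40.4 FPKM in Ctrl against 249.7, 369 and 139.9 FPKM in cKO hearts (2.44, adjusted p = 0.0029). Its relative Fhl2 went the other way, at 574, 613 and 743 FPKM in Ctrl against 216, 425 and 318 FPKM in cKO hearts (-1.05, adjusted p = 0.0165). In both genes the groups did not overlap. Actc1, the cardiac actin gene, was at 3846 to 6014 FPKM in Ctrl against 2904 to 6542 FPKM in cKO hearts and did not pass the test, and the smooth muscle genes Myh11 and Cnn1 did not either.

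The counts of the remaining lists stand beside 16.3% higher and 17.0% lower of all genes tested. GATA4 targets gave 3 higher and 1 lower of 11. Nppb, the B-type natriuretic peptide gene, was at 385, 233 and 75.2 FPKM in Ctrl against 800.4, 3352 and 1203 FPKM in cKO hearts (2.96, SE 0.706, adjusted p = 0.0192), so that all cKO hearts were above all Ctrl hearts. NKX2-5 targets gave 3 higher and 2 lower of 10. MEF2 targets gave 2 higher and 5 lower of 13, with a list median of -0.27. The lower genes were Mb (-0.98), Slc2a4 (-0.92), Ppargc1a (-0.64), Klf2 (-0.58) and Ckm (-0.42), and the higher ones were Xirp1 (0.86) and Xirp2. Xirp2, an actin-binding protein of the intercalated disc, was at 52.8, 59.7 and 38.6 FPKM in Ctrl against 224, 304 and 159 FPKM in cKO hearts (2.14, adjusted p = 0.00209). Of the 2 genes tested on the HAND2 list 1 was lower, AV026068, which is counted among the 15 lower of all listed targets. It overlaps Hand2 itself, so its call cannot be read as that of a separate target of HAND2. Among the lower genes, Mb, Tnni3 (GATA4 list) and Myl2 (NKX2-5 list) are also on the cardiomyocyte marker list, whose sum was lower in cKO hearts. The part of that in these counts was not tested. Factor mRNA and target lists were measured in the same 6 hearts, and no relation between them was tested.

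**Figure D5:**
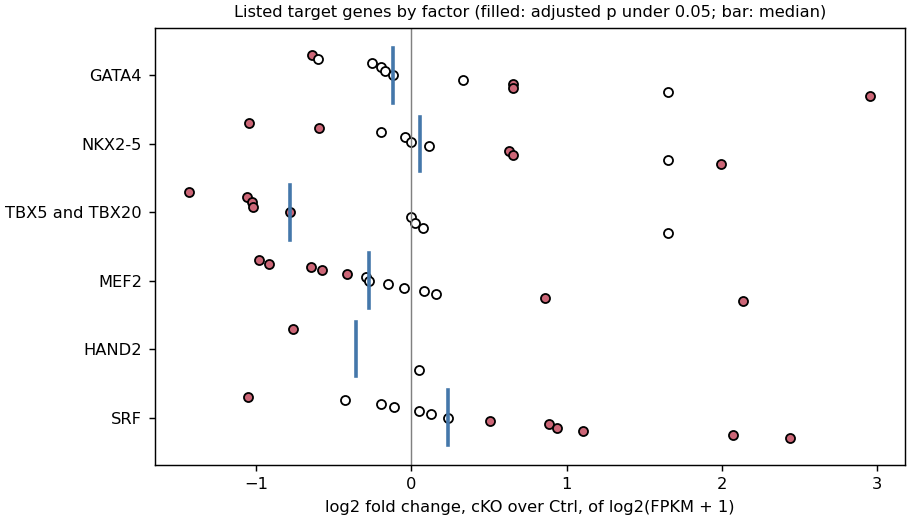
Log2 fold change (cKO against Ctrl) of the textbook target genes, grouped by factor, 1 point per gene, filled where called, with a bar at the list median. The TBX5 and TBX20 list lies lowest, with a median of -0.78, and the SRF list has 6 filled points above 0 and 1 below.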

How the data were processed

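Hearts of 3 Ctrl and 3 cKO mice were compared, grouped by sample title. The authors sequenced poly-A selected libraries of ventricular RNA, aligned reads with Hisat2, counted them with featureCounts and computed the deposited FPKM values from read count and gene length; they tested read counts in a design of 2 groups without covariates, which was kept here on the log scale. The strand setting was not given in the sources used here. The deposited gene length, an other gene-level value, was taken as given. Annotation columns of the table gave names, positions and transcription factor families.

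FPKM times gene length gave whole reads for 100% of values (tolerance 0.01 of a read). Implied library sizes were 0.913 to 0.980 times the read totals in Ctrl and 1.06 times in cKO, so the deposited values had been scaled between samples. Submitters' notes name mm9, but of 54409 gene identifiers shared with GENCODE M21 (GRCm38) every one was on its annotated chromosome and 53499 matched in start and end; coordinates follow GRCm38.

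The deposited values were put on the scale log2(FPKM + 1), where changes of low genes come out too small. They were fitted with limma 3.58.1 (lmFit, eBayes with trend, 2 groups, two-sided) where the mean over hearts reached 0.5 FPKM. Benjamini-Hochberg adjustment ran over all genes so tested. The fit was also run on simulated data, with larger changes than those of the factors in a small part of the genes. That run does not show how well changes of the factors' size are found. Family shares were compared by exact permutation. Promoters are RefSeq windows of GRCm38.p6, matched for 7 of 10 factors (not for Gata4, Gata6 and Tbx5). Replicates are separate libraries per the labels; errors are SD over hearts. Precision is limited by 3 hearts a group, and 500 reads or more stood behind each value of a factor. Named were all factors, Mrps5, overlapping genes, the 3 largest calls in each direction of each list, nearest profiles and the top gene of each marker list. Overlapping genes below the filter at Mef2a and Mef2d were left out. Others named were chosen after their values were seen. The factors and lists were chosen with earlier results of these data known. Alternatives were another pseudocount, other filters, scalings, voom on recovered reads, no trend, a replicate block, Myl7 as covariate and leaving out hearts; scaling to total reads was added after seeing the data.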

Additional observations from a re-analysis of the deposited data

How the results depend on the processing

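Mrps5 (log2 fold changes -2.25 to -1.54) and Tbx5 were called lower in all 17 alternatives, with Gata4 higher in 12 and Tbx20 in 10; Gata6, Hand2 and Mef2a were called in none of the 17 (log2 fold changes -0.27 to -0.06, -1.01 to -0.20 and -0.38 to -0.13). The 2 factors called higher became 0 of 10 with no filter, where 26855 genes were tested (3 at an unadjusted p under 0.05), 0 without Ctrl replicate 1 and cKO replicate 3 (3 unadjusted), and 1 with Myl7 as a covariate; leaving out single hearts gave 0 to 3 higher and 1 to 2 lower. Mef2d reversed to 0.059 when scaled without mtDNA-encoded genes, 0.12 when scaled to total reads and 0.026 without cKO replicate 2, and leaving out single hearts it ran from -0.076 to 0.026. The cause was not tested. Srf was called under both of those scalings, Nkx2-5 (0.55) and Mef2c (-0.36) without cKO replicate 2.

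Scaling to total reads shifted the all-gene median from -0.02 to 0.09 (log2) and the share of higher genes among calls from 48.9% to 70.3%; scaling without mtDNA-encoded genes gave 62.0%. Calls among all genes ran from 2018 (without Ctrl replicate 1 and cKO replicate 3) to 4653 (scaled to total reads), against 4315. They numbered 3279 with no filter, 3597 with Myl7 as a covariate and 2850 to 3999 without single hearts. In the related lists, family relatives had 0 higher with a filter at a mean of 1 FPKM and 1 lower under both scalings, other heart transcription factors 3 lower under total reads, and cofactors 4 higher and 3 lower without mtDNA-encoded genes and 6 higher and 2 lower under total reads, against 4 and 7. Leaving out single hearts gave 0 to 1 higher and 1 to 2 lower family relatives, 1 to 3 higher and 2 to 4 lower other heart factors, 3 to 4 higher and 3 to 5 lower cofactors, and 7 to 12 higher and 11 to 16 lower targets.

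Replicate numbers did not pair the hearts (correlations of deviations -0.055, 0.17 and -0.015). With the replicate block 3856 genes were called and 1 factor was higher, Gata4 (adjusted p = 0.0129), while Tbx20 lost its call (log2 fold change 0.39, adjusted p = 0.0605).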
